A study of Mus musculus with 30 samples.

Results

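Genes of glucose breakdown and of lactate and glycerol phosphate metabolism were followed in bulk RNA-seq of 30 male mouse descending thoracic aortas, as 10 of the 26253 gene symbols in the count files. The 10 were taken by symbol: *Slc2a1*, *Hk2*, *Pfkl*, *Aldoa*, *Gpd1*, *Pgk1*, *Eno1*, *Pkm*, *Ldha* and *Ldhb*. The set was chosen by fold changes and levels already known from these same libraries (*Ldhb* had stood out between genotypes and *Aldoa* in the interaction of genotype and hydralazine), so its values are a description and lend no independent support to any direction. The adjusted p-values given place each gene in a fit of all genes and are not separate evidence. Each library comes from 1 aorta, and 1 library was made per mouse.

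The VEDS mice carry 1 *Col3a1* G938D allele, a glycine substitution in the type III collagen chain that models vascular Ehlers-Danlos syndrome, and the control mice are *Col3a1*+/+. The 6 groups are VEDS mice given hydralazine with bicalutamide (HB, 3 libraries), VEDS mice given hydralazine with spironolactone (HS, 3), VEDS mice given hydralazine alone (6), untreated VEDS mice (6), control mice given hydralazine (6) and untreated control mice (6). Hydralazine, a vasodilator, was in the drinking water from birth at 32 mg/kg/day, and bicalutamide (50 mg/kg/day, an androgen receptor antagonist) or spironolactone (100 mg/kg/day, an antagonist of the androgen and mineralocorticoid receptors) was in the food from day 21. HB and HS mice were all collected at day 60, whereas the groups of 6 hold mice of day 30 and of day 60 and the labels do not say which library is which. The age mix therefore cannot be told apart from the addition of the antagonists in any comparison of the HB or HS group with a group of 6. HS against HB compares mice of day 60 only. *Col3a1* itself was read at 4309 to 17724 CPM (counts scaled to the library total and TMM factor) over all libraries, and its count does not separate the alleles.

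Library totals ran from 5517510 to 8293289 counts. Smooth muscle markers, which define the labelled tissue's main cell type, summed to 16605 to 31722 CPM over all 30 libraries. In 3 libraries something stood apart. HB replicate 2 and hydralazine-treated control replicate 5 held cardiomyocyte markers at a summed 662 and 705 CPM, against 4.12 to 33.9 CPM in untreated VEDS aortas, and HS replicate 3, set apart in an earlier analysis of these libraries, had the lowest TMM factor, 0.933.

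Glycolysis turns glucose into pyruvate in the cytosol. The glucose carrier GLUT1 (*Slc2a1*) brings glucose into the cell, hexokinase 2 (*Hk2*) phosphorylates it, and the liver-type phosphofructokinase subunit (*Pfkl*) and aldolase A (*Aldoa*) carry out the committed and the splitting steps. Phosphoglycerate kinase 1 (*Pgk1*), enolase 1 (*Eno1*) and the muscle-type pyruvate kinase (*Pkm*) complete the path to pyruvate, which the lactate dehydrogenase subunits A (*Ldha*) and B (*Ldhb*) interconvert with lactate. *Gpd1* encodes the cytosolic glycerol-3-phosphate dehydrogenase, which draws on the aldolase product and feeds triglyceride synthesis and the glycerol phosphate shuttle. Smooth muscle of the arterial wall is known to form lactate even when oxygen is plentiful, and brown and white fat cells are rich in several of the same enzymes.

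Promoter sequences are shown for *Ldha*, *Pfkl* and *Eno1*, which lay lower together in HB and HS aortas, and for *Slc2a1*, whose groups overlapped. RefSeq promoter windows (build GRCm38.p6, not the mm39 build that the counts were made on) matched 9 members with 15 windows, and *Gpd1* had none. Each sequence holds the 250 bases before the annotated start on the gene's own strand, 5′ to 3′. Capitals mark ACGTG or GCGTG on either strand, the core letters of the site bound by hypoxia-inducible factors, and CACGTG, the E-box letters, which hold ACGTG on both strands and so count there as well. A match on the opposite strand reads CACGT or CACGC as printed. The first *Ldha* window is chr7:46845554-46845803 on the plus strand, *Pfkl* is chr10:78009808-78010057 on the minus strand, the second *Eno1* window is chr4:150236947-150237196 on the plus strand, and *Slc2a1* is chr4:119108495-119108744 on the plus strand.
Ldha: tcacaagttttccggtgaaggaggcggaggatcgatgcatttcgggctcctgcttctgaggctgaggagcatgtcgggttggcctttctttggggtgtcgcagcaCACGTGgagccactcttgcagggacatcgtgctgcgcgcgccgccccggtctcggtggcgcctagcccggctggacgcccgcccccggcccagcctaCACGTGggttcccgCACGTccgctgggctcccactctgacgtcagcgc
Pfkl: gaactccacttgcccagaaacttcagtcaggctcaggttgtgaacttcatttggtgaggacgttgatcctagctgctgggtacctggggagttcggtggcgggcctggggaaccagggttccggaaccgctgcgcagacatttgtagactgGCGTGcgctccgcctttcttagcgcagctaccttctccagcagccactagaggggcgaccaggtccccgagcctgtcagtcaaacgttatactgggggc
Eno1: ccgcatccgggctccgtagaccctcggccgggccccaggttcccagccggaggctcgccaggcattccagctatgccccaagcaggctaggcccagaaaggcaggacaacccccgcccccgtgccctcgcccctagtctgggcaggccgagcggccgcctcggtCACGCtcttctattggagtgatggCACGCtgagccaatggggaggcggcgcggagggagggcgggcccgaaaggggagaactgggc
Slc2a1: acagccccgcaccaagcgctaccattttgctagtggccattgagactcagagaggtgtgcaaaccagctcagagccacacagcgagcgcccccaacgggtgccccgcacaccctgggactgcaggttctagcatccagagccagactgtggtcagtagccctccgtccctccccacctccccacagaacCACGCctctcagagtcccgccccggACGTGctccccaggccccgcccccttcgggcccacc

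ACGTG or GCGTG was found in 13 of the 15 member windows, against 38.6% of all 32851 windows of this length. All 9 genes had it in at least 1 window, a count per gene to which the share of windows does not apply. Some *Eno1* windows and some *Aldoa* windows overlap and hold the same matches, so the 15 are not independent. CACGTG was found in 1 of the 15, the first *Ldha* window, against 6.02% of all windows. The member windows are also richer in G and C, with a median of 66.4% against 52.4% over all windows. The first *Ldha* window holds 5 core matches, the *Eno1* and *Slc2a1* windows shown hold 2 each and the *Pfkl* window holds 1. A match describes letters in a window and not binding.

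Per transcript length the genes spanned a wide range of levels. Over all 30 libraries *Aldoa* averaged 204 ± 46.0 TPM (SD, TPM, the transcript share corrected for length), *Pkm* 167 ± 25.2, *Eno1* 116 ± 42.2, *Gpd1* 94.0 ± 62.0 and *Ldha* 85.1 ± 28.2. *Pgk1* followed at 47.2 ± 13.4 TPM, *Ldhb* at 31.5 ± 6.11, *Pfkl* at 12.3 ± 4.70, *Hk2* at 7.34 ± 2.42 and *Slc2a1* at 5.92 ± 1.24. Only between *Ldhb* and *Pfkl* did neighbours in this order differ by more than their spread, and the mean ± SD ranges of all other neighbours overlapped. *Gpd1* varied most, from 73.1 to 937 CPM, a 12.8-fold range, and *Pkm* least, from 401 to 696 CPM. All 10 genes passed the low-count filter in each of the 11 comparisons. *Eno1* counts were fractional in 30 of 30 libraries, and its near-identical copy *Eno1b* held at most 18.4 counts, so *Eno1* is uncertain by that sharing. The counts of the other 9 members were whole.

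Against untreated VEDS aortas, 3 of the 10 genes were lower in HB aortas and 4 in HS aortas at an adjusted p of 0.05 or less, and none was higher. *Pfkl*, *Eno1* and *Gpd1* were called with both treatments and *Aldoa* with HS. Of all genes tested, 0.409% were called in the HB comparison and 0.309% in the HS comparison. Both comparisons use the same 6 untreated VEDS libraries, so their values are given side by side and are not separate evidence.

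**Figure D1:**
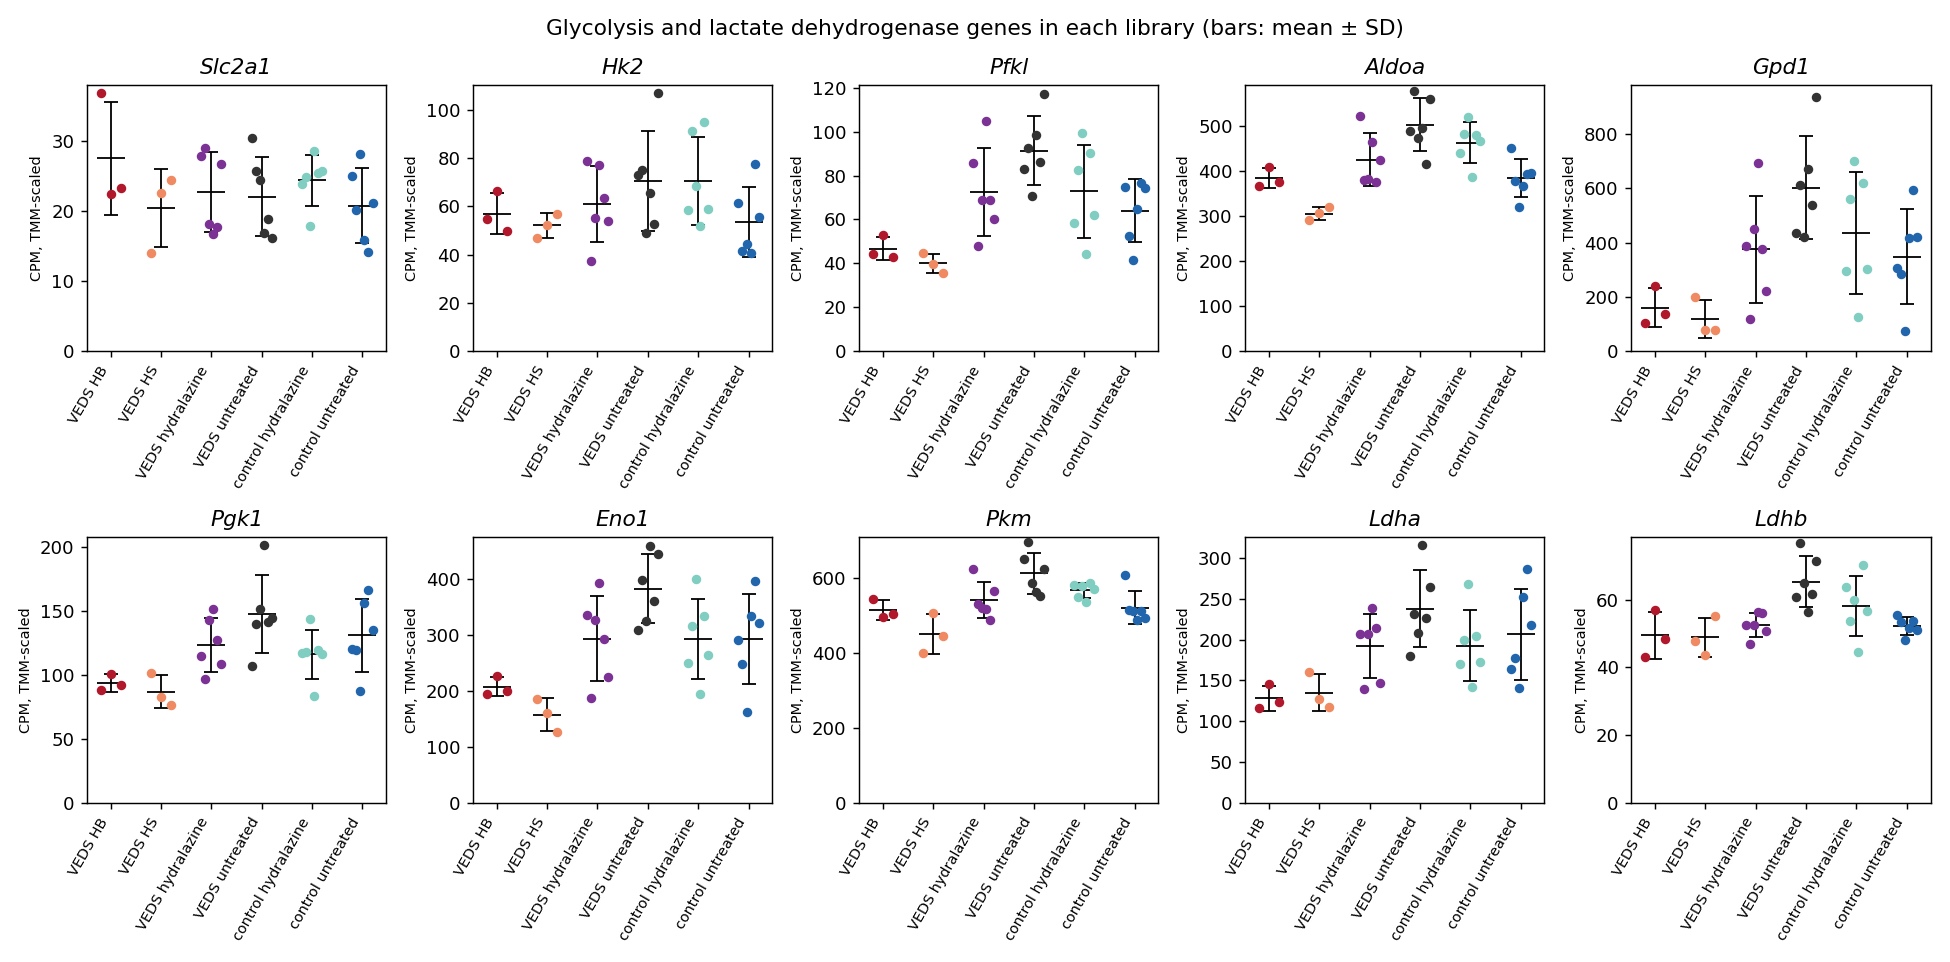
CPM (TMM-scaled, y axis from 0) of the 10 genes in every library, with 1 point per library in 6 groups and bars for mean ± SD. Untreated VEDS libraries of *Pfkl* sit between 70.9 and 117 CPM, above all HB (43.0 to 52.8) and HS (35.8 to 44.7) libraries, while *Slc2a1* libraries of all groups overlap.

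At the entry of the pathway the groups were not separated. *Slc2a1* had 36.9, 22.5 and 23.2 CPM in HB aortas and 14.0, 22.6 and 24.5 CPM in HS aortas, against 16.2 to 30.4 CPM (median 21.6) in untreated VEDS aortas. One HB library lay above and one HS library below every untreated VEDS library, and the others overlapped. The log2 fold change was 0.31 ± 0.23 (SE) for HB and -0.13 ± 0.24 for HS, with edgeR adjusted p of 0.524 and 0.866. *Hk2* had 54.7, 66.4 and 49.8 CPM in HB aortas and 46.9, 52.4 and 57.0 CPM in HS aortas, against 49.2 to 107 CPM (median 69.3) in untreated VEDS aortas. Its groups overlapped, at -0.31 ± 0.22 for HB and -0.44 ± 0.22 for HS (edgeR adjusted p 0.511 and 0.494).

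*Pfkl* and *Aldoa*, from the middle of the pathway, did not overlap between treated and untreated VEDS aortas. *Pfkl* had 44.3, 52.8 and 43.0 CPM in HB aortas and 44.7, 39.5 and 35.8 CPM in HS aortas, against 70.9 to 117 CPM (median 89.4) in untreated VEDS aortas. No HB or HS library reached the lowest untreated one. *Pfkl* fell by 0.97 ± 0.15 on the log2 scale in HB aortas (edgeR adjusted p = 0.0375) and its log2 fold change in HS aortas was -1.20 ± 0.15 (adjusted p = 0.0311). *Aldoa* had 368, 410 and 376 CPM in HB aortas and 291, 307 and 319 CPM in HS aortas, against 417 to 577 CPM (median 493) in untreated VEDS aortas. All treated libraries were below all untreated ones, and the HS libraries were also below the HB libraries, as were 7.91% of all genes. *Aldoa* fell by 0.73 ± 0.11 in HS aortas (adjusted p = 0.0409), and its log2 fold change in HB aortas was -0.39 ± 0.11 (adjusted p = 0.118).

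The branch to glycerol phosphate showed the widest difference. *Gpd1* had 104, 240 and 137 CPM in HB aortas and 198, 78.2 and 77.3 CPM in HS aortas, against 421 to 937 CPM (median 576) in untreated VEDS aortas. The highest treated library held less than the lowest untreated one. *Gpd1* fell by 1.91 ± 0.33 in HB aortas (edgeR adjusted p = 0.0444) and its log2 fold change in HS aortas was -2.36 ± 0.39 (adjusted p = 0.0440).

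Of the 3 members between the aldolase step and pyruvate, *Eno1* was called and *Pgk1* and *Pkm* were not. It had 194, 226 and 200 CPM in HB aortas and 186, 160 and 127 CPM in HS aortas, against 308 to 458 CPM (median 379) in untreated VEDS aortas, with no overlap. *Eno1* fell by 0.89 ± 0.14 in HB aortas (edgeR adjusted p = 0.0389) and its log2 fold change in HS aortas was -1.29 ± 0.17 (adjusted p = 0.0311). *Pgk1* had 88.1, 101 and 92.0 CPM in HB aortas and 102, 82.9 and 76.6 CPM in HS aortas, against 107 to 202 CPM (median 143) in untreated VEDS aortas. The groups did not overlap, yet *Pgk1* did not pass, at -0.66 ± 0.17 for HB (adjusted p = 0.103) and -0.77 ± 0.18 for HS (adjusted p = 0.131). *Pkm* had 546, 496 and 505 CPM in HB aortas and averaged 451 ± 53.5 CPM in HS aortas (401 to 507), against 554 to 696 CPM (median 607) in untreated VEDS aortas. Its log2 fold changes were -0.25 ± 0.088 and -0.45 ± 0.11 (adjusted p 0.188 for HB and 0.140 for HS).

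The lactate dehydrogenase subunits did not pass either. *Ldha* had 116, 145 and 123 CPM in HB aortas and 160, 128 and 117 CPM in HS aortas, against 180 to 316 CPM (median 229) in untreated VEDS aortas, without overlap. Its log2 fold change was -0.90 ± 0.17 for HB (edgeR adjusted p = 0.0563) and -0.83 ± 0.18 for HS (adjusted p = 0.108), so that *Ldha* lay just outside the threshold in HB aortas and *Gpd1* just inside it. *Ldhb* had 43.1, 56.9 and 48.3 CPM in HB aortas and 47.9, 43.7 and 55.1 CPM in HS aortas, against 56.4 to 76.9 CPM (median 63.2) in untreated VEDS aortas. One HB library overlapped the untreated range and no HS library did. The log2 fold changes of *Ldhb* were -0.41 ± 0.12 and -0.43 ± 0.11 (adjusted p 0.131 for HB and 0.186 for HS).

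In all, every HB library lay below every untreated VEDS library for 7 of the 10 genes, against 3.79% of all genes tested, and every HS library did so for 8 of 10, against 3.1%. The median log2 fold change over the 10 genes was -0.53 for HB and -0.75 for HS, beside -0.015 and -0.011 over all genes tested.

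**Figure D2:**
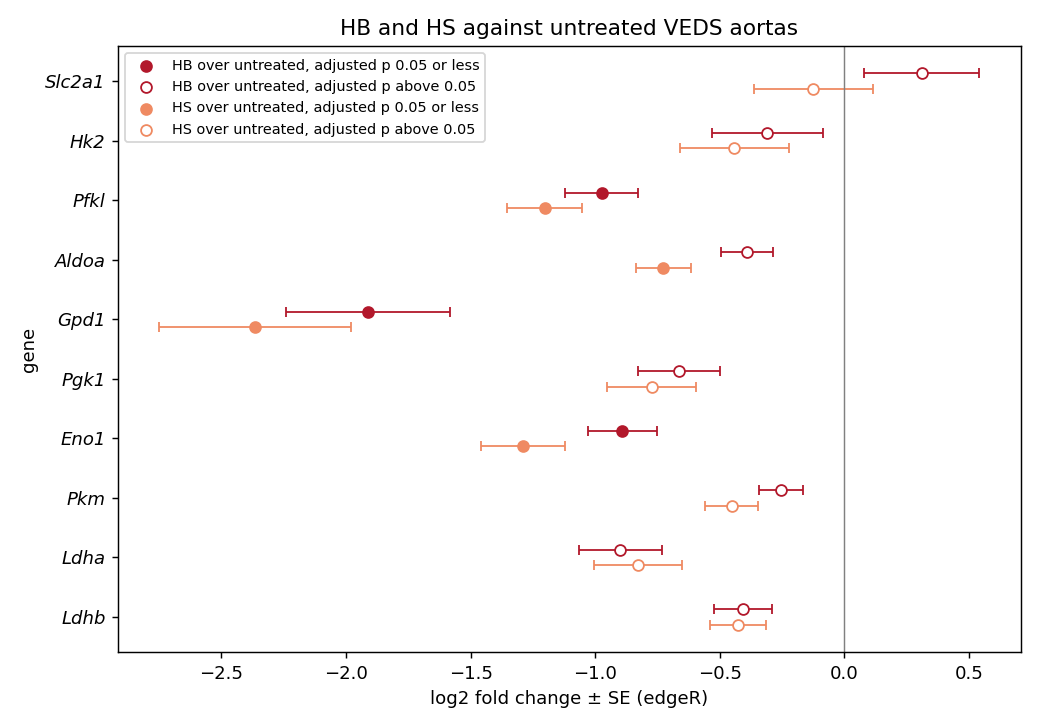
Log2 fold change ± SE (x axis, edgeR) of each gene in HB and HS aortas over untreated VEDS aortas, with filled points for an adjusted p of 0.05 or less. *Gpd1* lies farthest to the left, at -1.91 for HB and -2.36 for HS, and *Slc2a1* for HB, at 0.31, is the only point right of 0.

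Markers of brown fat moved with these genes. The summed level of 7 brown adipocyte markers ranged over 230 to 515 CPM in HB aortas and 202 to 513 CPM in HS aortas, against 528 to 1379 CPM in untreated VEDS aortas, with no overlap. Of the 7, 6 were lower in each comparison, 6 had an unadjusted p under 0.05 in edgeR (16.4% of all genes for HB and 11.1% for HS) and 0 were called, with median log2 fold changes of -1.60 for HB and -1.35 for HS. Its defining marker *Ucp1*, the uncoupling protein of brown fat, ranged over 54.2 to 194 CPM in HB aortas and 27.6 to 168 CPM in HS aortas, against 220 to 886 CPM in untreated VEDS aortas. The 8 general adipocyte markers summed to 242 to 701 CPM in HB aortas and 423 to 1039 CPM in HS aortas, against 671 to 1149 CPM in untreated VEDS aortas. For these general markers both HB and HS overlapped the untreated range. None of the brown adipocyte markers was at 0 in any library. In bulk RNA, fewer cells of a type and less RNA per cell cannot be told apart.

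With the mean log2 CPM of the adipocyte and brown adipocyte markers as a covariate, 0 of the 10 genes were called for HB and 0 for HS. All genes called then numbered 3 for HB and 1 for HS. The log2 fold change of *Gpd1* became -0.80 for HB and -1.51 for HS, that of *Pfkl* -0.59 and -0.92, and that of *Eno1* -0.56 and -0.98. *Aldoa* moved less in log2 units, from -0.39 to -0.22 for HB and from -0.73 to -0.72 for HS. *Slc2a1* turned to -0.43 for HB and *Hk2* to 0.16, neither called.

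Without HB replicate 2 or HS replicate 3, 0 of the 10 genes were called in either comparison, with log2 fold changes of -1.07 (HB) and -1.12 (HS) for *Pfkl* and of -2.32 (HB) and -2.12 (HS) for *Gpd1*. Hepatocyte markers summed to 687 to 932 CPM in HB aortas and 202 to 1998 CPM in HS aortas, against 106 to 16894 CPM in untreated VEDS aortas, and their part in the result was not tested. The calls rested on single libraries more widely. No member was called for HB without any 1 of its 3 libraries, or without untreated VEDS replicate 2 or 5, and none for HS without HS replicate 2 or 3, or without untreated VEDS replicate 2 or 5. Without untreated VEDS replicate 1 there were 5 for HB and 6 for HS, and the other omissions gave 1 for HB and 1 to 2 for HS.

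Across all 30 libraries the levels followed the brown adipocyte markers to different degrees. Spearman's rho with their summed level was 0.93 for *Gpd1*, 0.88 for *Pfkl*, 0.87 for *Eno1*, 0.83 for *Ldha*, 0.77 for *Ldhb*, 0.76 for *Pgk1*, 0.74 for *Hk2*, 0.73 for *Aldoa* and 0.44 for *Pkm*. *Slc2a1* ran the other way at -0.45, and its rho with the 8 smooth muscle markers was 0.83. Hepatocyte markers gave a rho of 0.75 for *Pgk1*, 0.70 for *Ldha*, 0.55 for *Eno1*, 0.50 for *Gpd1* and 0.45 for *Pfkl*. For the other members it was 0.14 (*Aldoa*), 0.069 (*Ldhb*), 0.0033 (*Hk2*), -0.14 (*Pkm*) and -0.56 (*Slc2a1*). Within groups *Pgk1* was at 0.83 with hepatocyte and 0.70 with brown adipocyte markers. When each group's mean was removed first, rho with the brown adipocyte markers was 0.94 for *Gpd1* and -0.73 for *Slc2a1*, while that of *Pkm* was -0.23. These are descriptions over 30 libraries that share their group, age mix and tissue make-up.

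**Figure D3:**
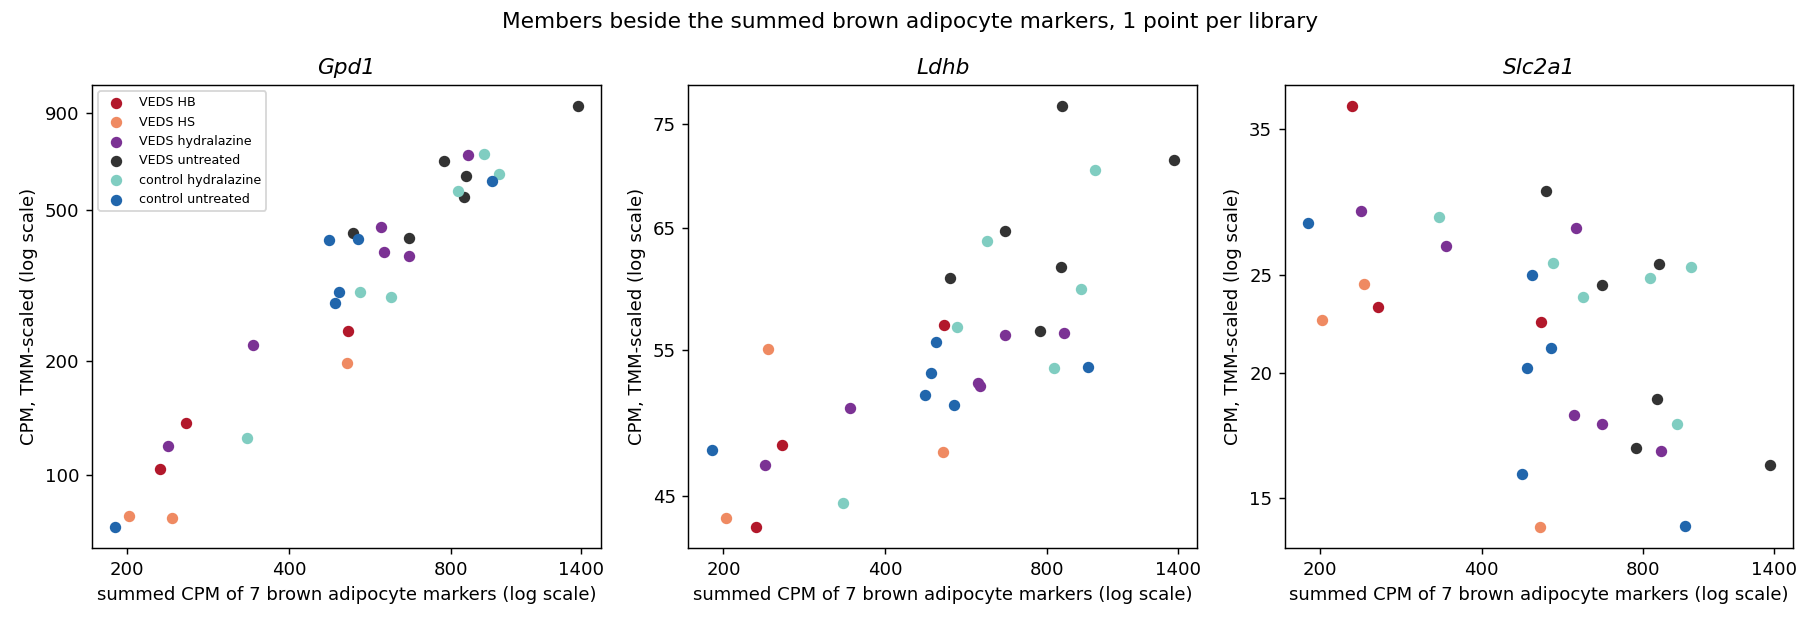
CPM of *Gpd1*, *Ldhb* and *Slc2a1* (y axes, log scale) against the summed CPM of 7 brown adipocyte markers (x axes, log scale), with 1 point per library. *Gpd1* climbs along the axis (rho 0.93), *Ldhb* does so with more scatter (0.77) and *Slc2a1* goes down (-0.45).

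Among themselves, the 9 genes other than *Slc2a1* were positively correlated in 36 of 36 pairs, with a median rho of 0.69 and a range of 0.23 to 0.96. Within groups 32 of the 36 pairs stayed positive, with a median of 0.51 and a range of -0.49 to 0.94. The negative ones were all pairs of *Pkm*, with *Pgk1* (-0.49), *Ldha* (-0.38), *Gpd1* (-0.23) and *Eno1* (-0.19). Over all 30 libraries *Pfkl* and *Gpd1* reached 0.96, *Eno1* and *Gpd1* 0.95, and *Pgk1* and *Ldha* 0.94. *Slc2a1* and *Pgk1* were at -0.64. Of all 45 pairs, 38 were positive.

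The genes most like each member, of 13523 compared over 30 libraries, came from several pathways. For *Pfkl* they were the acetyl-CoA carboxylase *Acacb* (rho 0.97), the fatty acid synthase *Fasn* (0.96) and *Gpd1* (0.96). For *Eno1* they were the ATP citrate lyase *Acly* (0.98), the transketolase *Tkt* (0.97) and the acetyl-CoA carboxylase *Acaca* (0.97). For *Gpd1* they were the complex III subunit *Uqcrc1* (0.96), *Ucp1* (0.96) and *Letmd1* (0.96). For *Ldha* they were the glycogen phosphorylase *Pygl* (0.96), the glycogen branching enzyme *Gbe1* (0.95) and *Hadha* of fatty acid oxidation (0.95), and for *Pgk1* the fatty acid oxidation enzymes *Acaa2* (0.95) and *Acads* (0.95) and again *Pygl* (0.95).

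The other members had looser neighbours. *Aldoa* lay closest to *Pfkl* (0.84), the glucose phosphate isomerase *Gpi1* (0.84) and the insulin-responsive glucose carrier *Slc2a4* (0.84), and *Pkm* to *Aldoa* (0.84), the prostaglandin receptor *Ptger3* (0.77) and *Gpi1* (0.76). Among the genes closest to *Hk2* were *Slc2a4* (0.78) and the lipin *Lpin1* (0.77), and *Ldhb* lay closest to the isocitrate dehydrogenase subunit *Idh3g* (0.83), the nuclear receptor *Esrra* (0.83) and *Cib2* (0.82). *Slc2a1* lay closest to *Apbb1* (0.91), *Lynx1* (0.89) and the actin cross-linker filamin A, *Flna* (0.89).

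In the pathways around these enzymes, from lists also drawn up with earlier results known, 0 genes of the 7 lists passed for HB and 6 passed for HS, all lower than in untreated VEDS aortas. *Gapdh*, the glycolytic dehydrogenase, averaged 306 ± 44.4 CPM in HS aortas against 556 ± 62.5 CPM in untreated VEDS aortas (log2 fold change -0.87 ± 0.13, edgeR adjusted p = 0.0409), as the only called gene of 16 other glycolytic enzymes tested. *Slc2a4* (-1.13 ± 0.14, adjusted p = 0.0311) was the only one of 11 transporters, and *Gpd2*, the mitochondrial partner of *Gpd1* in the shuttle (-1.33 ± 0.22, adjusted p = 0.0459), the only one of 10 shuttle genes. In the pentose phosphate pathway *Tkt* (-1.35 ± 0.18, adjusted p = 0.0316) and glucose-6-phosphate dehydrogenase *G6pdx* (-0.53 ± 0.083, adjusted p = 0.0411) passed of 7. *Mlxipl*, a glucose-sensing transcription factor, averaged 9.57 ± 0.484 CPM in HS aortas against 22.7 ± 4.48 CPM in untreated VEDS aortas (-1.25 ± 0.17, adjusted p = 0.0316), as the only one of 16 regulators. None of 16 regulatory enzymes and none of 16 gluconeogenesis and glycogen genes was called, with 7 of each at an unadjusted p under 0.05, beside 11.1% of all genes. For HB, edgeR gave an unadjusted p under 0.05 to 5 of 16 glycolytic enzymes, 6 of 11 transporters, 7 of 16 regulatory enzymes, 4 of 10 shuttle genes, 5 of 7 pentose phosphate genes, 9 of 16 gluconeogenesis and glycogen genes and 3 of 16 regulators, beside 16.4% of all genes.

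Isozyme shares compare each member with its relatives in the same library. *Pfkl* made up 14.6 ± 1.53% of phosphofructokinase TPM in HB aortas and 13.8 ± 2.94% in HS aortas, against 28.0 ± 4.71% in untreated VEDS aortas (SD, n = 3, 3 and 6). The muscle-type *Pfkm* and platelet-type *Pfkp* overlapped between groups, with *Pfkp* at 30.3 ± 2.94 TPM in HB aortas and 25.3 ± 2.61 TPM in HS aortas, against 27.9 ± 2.28 TPM in untreated VEDS aortas. The B subunit made up 32.5 to 33.7% of lactate dehydrogenase TPM in HB aortas and 27.9 to 37.8% in HS aortas, against 18.8 to 30.3% in untreated VEDS aortas. The HB and untreated VEDS ranges did not overlap, and the HS range did. *Eno1* held 92.2 ± 2.40% of enolase TPM in HB aortas and 91.9 ± 2.17% in HS aortas, against 96.3 ± 0.608% in untreated VEDS aortas. The lowest HB share, 89.6%, was that of HB replicate 2, which held cardiomyocyte markers at 662 CPM. The lowest HS share, 89.9%, was that of HS replicate 3, with 5.59 CPM of these markers. Their part in the shares was not tested.

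Hexokinase 2 held 49.4 ± 3.97% of hexokinase TPM in HB aortas and 48.9 ± 5.30% in HS aortas, against 52.7 ± 9.00% in untreated VEDS aortas. The abundance-weighted transcript length, a readout of isoform mix, varied by at most 0.981% for any member over the 30 libraries.

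Against VEDS aortas given hydralazine alone, which share hydralazine with HB and HS, 0 of the 10 genes passed. Of all genes tested, 0.0151% were called for HB and 0% for HS. At an unadjusted p under 0.05 there were 5 of 10 for HB, beside 15.5% of all genes, and 7 of 10 for HS, beside 13.6%, and DESeq2 called 1 for HB and 3 for HS. *Ldha* had the smallest p for HB (-0.60 ± 0.17, edgeR adjusted p = 0.142), and *Aldoa* for HS (-0.48 ± 0.12, adjusted p = 0.332). Every HS library lay below every hydralazine library for 3 of 10 genes (*Pfkl*, *Aldoa* and *Eno1*), against 2.66% of all genes, and every HB library did so for 0 of 10, against 4.59%. *Gpd1* had 104 to 240 CPM in HB aortas and 77.3 to 198 CPM in HS aortas, against 119 to 695 CPM in hydralazine-treated VEDS aortas, where the groups overlapped.

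No member passed between HS and HB aortas. In HS against HB, 0 of 10 genes and 0% of all genes were called by edgeR, with 2 of 10 at an unadjusted p under 0.05 (6.68% of all genes) and 0 of 10 called by DESeq2. *Aldoa* had the smallest p (-0.33 ± 0.086, nominal 95% interval -0.50 to -0.16, adjusted p = 0.637) and *Eno1* the next smallest (-0.39 ± 0.15, interval -0.67 to -0.10, adjusted p = 0.708). The interval ran from -0.20 to 0.36 for *Ldha*, from -1.27 to 0.39 for *Gpd1* and from -0.92 to 0.072 for *Slc2a1*, and with 3 libraries each the missed threshold does not show that HS and HB act alike on these genes.

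Between genotypes in untreated mice, 0 of 10 genes passed and 0% of 12976 genes were called, with 394 genes (3.04%) and 4 members at an unadjusted p under 0.05 and 0 members by DESeq2. All 10 members had a positive log2 fold change in VEDS aortas, with a median of 0.35 beside 0.0034 over all genes. *Ldhb* had 56.4 to 76.9 CPM (median 63.2) in untreated VEDS aortas, against 48.0 to 55.6 CPM (median 52.5) in untreated control aortas. It did not overlap, as did 0.1% of all genes in this direction, and had the third smallest p of all genes (0.32 ± 0.074, edgeR adjusted p = 1.0). *Aldoa* had 417 to 577 CPM (median 493) in untreated VEDS aortas, against 320 to 452 CPM (median 386) in untreated control aortas (0.38 ± 0.094, adjusted p = 1.0). *Pfkl* stood at 0.51 ± 0.16, *Pkm* at 0.23 ± 0.075 and *Gpd1* at 0.79 ± 0.37, none of which passed. Brown adipocyte markers summed to 528 to 1379 CPM in untreated VEDS aortas, against 190 to 955 CPM in untreated control aortas, and with the fat marker covariate the log2 fold change of *Gpd1* was -0.043 and that of *Ldhb* 0.23. Among all alternatives *Slc2a1* (down to -0.026), *Pgk1* (-0.083) and *Ldha* (-0.093) also turned negative, and *Eno1* fell as low as 0.0086. The remaining members stayed positive.

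Under hydralazine the positive direction was not seen. In VEDS against control aortas given hydralazine, 2 of 10 members were higher and 8 lower, while 47.9% of all genes were higher. *Eno1* (0.0024 ± 0.19), *Pfkl* (-0.0049 ± 0.21) and *Ldha* (-0.0041 ± 0.16) lay so near 0 that their signs changed under several alternatives. Of the members 0 were called at 0% of all genes, 0 reached 0.05 before adjustment (4.64% of all genes did) and DESeq2 also called 0. *Ldhb* had 47.0 to 56.3 CPM (median 52.5) in VEDS aortas, against 44.6 to 70.4 CPM (median 58.3) in control aortas (-0.15 ± 0.093, edgeR adjusted p = 0.923). With both treatments joined, 0 members and 0% of all genes were called, with 0 members at an unadjusted p under 0.05 (3.7% of all genes) and 0 by DESeq2, and the median log2 fold change of the 10 was 0.11.

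**Figure D4:**
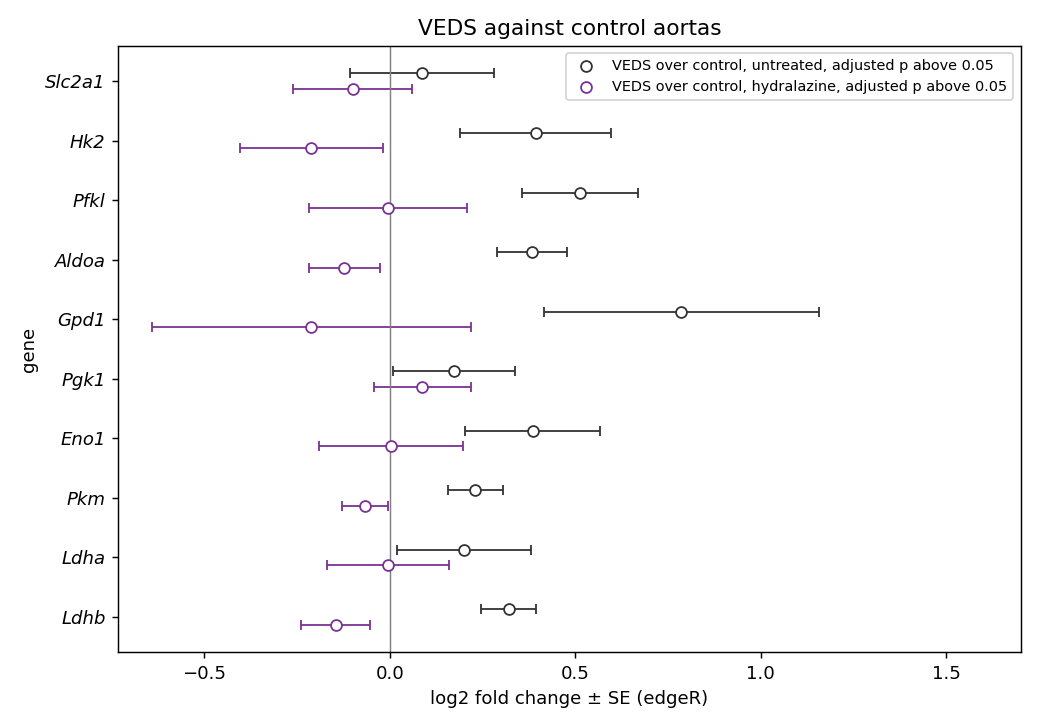
Log2 fold change ± SE (x axis, edgeR) of each gene in VEDS over control aortas, untreated and under hydralazine, none of which passed an adjusted p of 0.05. All 10 untreated values lie right of 0, *Gpd1* farthest at 0.79, and 8 of 10 values under hydralazine lie left of it. Under hydralazine *Eno1*, *Pfkl* and *Ldha* lie almost at 0.

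Hydralazine was also set against no treatment within each genotype, where no member passed. In VEDS aortas 9 of 10 members were lower, with 4 at an unadjusted p under 0.05 (4.53% of all genes) and 0 called (0% of all genes, 0 members by DESeq2). *Ldhb* had 47.0 to 56.3 CPM in hydralazine-treated VEDS aortas, against 56.4 to 76.9 CPM in untreated ones, without overlap, as for 0.161% of all genes in this direction (-0.30 ± 0.077, edgeR adjusted p = 1.0). In control aortas 8 of 10 members were higher, with 1 at an unadjusted p under 0.05 (9.5% of all genes) and 0 called (0% of all genes, 0 members by DESeq2), and *Aldoa* stood at 0.27 ± 0.089 (adjusted p = 0.497). The difference itself, the interaction of genotype and hydralazine, was negative for 10 of 10 members with a median of -0.43 beside -0.015 over all genes. No member passed, 0% of 13407 genes were called, and 3 members had an unadjusted p under 0.05, beside 3.28% of all genes (DESeq2 called 0). Without hydralazine-treated control replicate 5 the value of *Ldhb* was -0.41. With all libraries *Ldhb* (-0.47 ± 0.12) had the smallest p but 2 of all genes, and *Aldoa* (-0.51 ± 0.14) and *Pkm* (-0.30 ± 0.097) were the others, each with an edgeR adjusted p of 1.0. Brown adipocyte markers were higher in 7 of 7 in untreated VEDS aortas and had a negative interaction in 7 of 7 (median -0.99), and with the fat marker covariate the interaction of *Ldhb* was -0.28 and that of *Gpd1* 0.27. Among all alternatives the interaction also turned positive for *Pgk1* (up to 0.26), *Ldha* (0.24), *Eno1* (0.17) and *Pfkl* (0.032). Apart from these and *Gpd1*, the members stayed negative.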

How the data were processed

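From 30 descending thoracic aortas, stripped of perivascular fat, the authors prepared TruSeq stranded libraries, sequenced them on a NovaSeq instrument and quantified genes with RSEM and STAR on mm39, with CASAVA 1.8.4 named in the submitters' processing notes. For each gene the authors deposited RSEM's expected counts, TPM and an abundance-weighted transcript length in bases. Expected counts (97.6% whole within 1e-06) were rounded for the tests. Library totals ran from 5517510 to 8293289, which sets the counting error, and all 6 groups come from the labels. Neither age nor extraction batch is labelled for a library, and neither entered a model.

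The 11 comparisons were tested by the quasi-likelihood method of edgeR 4.0.16 (R 4.3.3, TMM scaling, default low-count filter), each with only the libraries it concerns. P-values were adjusted after Benjamini and Hochberg over all genes tested, and called at 0.05 or less. Intervals are nominal 95% intervals from the SE under a normal distribution, which run too narrow with few libraries. CPM values use TMM factors over 30 libraries, and correlations use log2 of CPM plus 0.5. The study's own test (EBSeq) was not used here. The members and lists were chosen with earlier results of these data known. Pathway genes were named where called, up to 6 per comparison, and the 3 most similar genes per member were taken at a mean of at least 1 CPM, with *Col3a1* added and *Ucp1* and isozymes as examples. The share of 1 isozyme family and 1 of the genes most like *Hk2* are not reported here. Alternatives were other size factors, DESeq2 1.42.0, other filters, 1 fit of all libraries, a fat marker covariate and leaving out libraries. The scripts were tested on simulated data, where edgeR kept false calls low and DESeq2 made more of them than its threshold allows, so DESeq2's larger counts are to be read as liberal.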

Additional observations from a re-analysis of the deposited data

Results flagged for a closer look

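*Pkm* stood out in 1 library. Of 40 groups of 6 libraries checked (10 genes in 4 groups), 1 had a library far from the others: *Pkm* in untreated control replicate 1, at 608 CPM against a next highest of 515 CPM, a gap of 0.775 of the group's range. Chance alone flags about 1 in 20 groups.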

How the results depend on the processing

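Counts of called genes depended on the setting, and no called member changed direction in any. With DESeq2 the genes called were 564 and the members 7 for HB against untreated VEDS, 295 and 7 for HS against untreated, 575 and 1 for HB against hydralazine, 54 and 3 for HS against hydralazine, 35 genes for HS against HB, 11 for hydralazine in control, 2 for hydralazine in VEDS, 1 for VEDS against control under hydralazine and 1 with both treatments joined. With 1 fit of all 30 libraries, 0 members were called for HB against untreated, and the genes called were 141 for HS against untreated, 1 for HB and 2 for HS against hydralazine, 2 for VEDS against control under hydralazine and 1 joined. With no low-count filter 2 genes were called for VEDS against control under hydralazine. Without the 3 libraries that stand apart, 2 genes and 0 members were called for HB against untreated, 1 and 0 for HS against untreated, 1 gene for HB against hydralazine and 1 for HS against HB. With the fat marker covariate, 3 genes and 0 members were called for HB and 1 and 0 for HS, both against untreated.

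Leaving out 1 library at a time gave 2 to 529 genes and 0 to 5 members for HB against untreated, and 0 to 104 genes and 0 to 6 members for HS against untreated. The members were highest in number without untreated VEDS replicate 1 and none were called for either without untreated VEDS replicate 2 or 5, for HB without HB replicate 1, 2 or 3, or for HS without HS replicate 2 or 3. The ranges were 1 to 56 genes for HB against hydralazine, 0 to 2 for HS against HB, 0 to 1 for hydralazine in control, 0 to 2 for VEDS against control under hydralazine and 0 to 4 joined, with 0 members in each. On deposited TPM the HS over untreated VEDS log2 ratios of mean levels were -1.42 for *Pfkl*, -0.94 for *Aldoa*, -0.65 for *Pkm* and -0.66 for *Ldhb*, each lower than on CPM by more than 1 SD of the replicates. Of 2240 member fold changes under all alternatives, 83 had the opposite sign to the reported value and 27 moved by more than 1 SD. Of the 30 similar genes, 6 were also among the 3 closest within groups. The causes were not tested. No paired analysis was possible because the labels number no replicates.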
